A study of Mus musculus with 12 samples.

Results

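Genes of the CD3 complex, of the CD8 co-receptor and of the first steps of T cell receptor signalling were followed in CD8 T cells sorted from mouse brain after stroke, from naive brain and from naive blood. They are 9 of the 23937 genes in the deposited table and were chosen by name, as parts of 1 pathway. Cd3e, Cd3g, Cd3d and Cd247 encode the signalling chains that accompany the T cell receptor, with Cd247 encoding the zeta chain. Cd8a and Cd8b1 encode the alpha and beta chains of CD8. Lck and Zap70 encode the first kinases of the pathway, and Lat encodes the adaptor on which its products assemble. All 9 genes passed the filter of at least 1 CPM, the count of a gene's reads scaled to library size, in at least 3 libraries.

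The antigen-binding chains of the T cell receptor have almost no cytoplasmic tail, and the CD3 and zeta chains signal in their place through tyrosine motifs. CD8 binds class I major histocompatibility molecules on the target cell and carries Lck, which phosphorylates those motifs. Zap70 docks on the phosphorylated motifs and phosphorylates Lat, which gathers the enzymes that raise calcium and activate Ras. In the brain, CD8 T cells are scarce in health and are known to enter the tissue after ischaemic injury.

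RNA was sequenced from 12 libraries of CD8 T cells, 3 in each of 4 groups, namely brain at day 30 after stroke, brain at day 3 after stroke, naive brain and naive blood. Sorted cells were lysed directly, and libraries were made with a SMART-Seq v4 kit for very small amounts of RNA, which adds no molecular identifiers. The labels name no strain, age, stroke model or cell number, and the treatment text speaks of dissociated spleens, so the groups follow each sample's own title and tissue. Since no label states that each library is from its own mouse, p-values here gauge no more than the spread among these samples.

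The libraries held 1104490 to 21014171 reads, so that a gene without a read could still stand at up to 3 reads, or 0.298 to 1.65 CPM. The 9 genes took 0.0659% to 1.14% of a library's reads. All 9 genes had reads in every library, with the lowest count at 20 reads, for Zap70 in day 3 brain replicate 2. Most genes of the table had a read in every library, from 17502 genes in naive brain replicate 2 to 22997 in day 3 replicate 2. Zap70 ranked 11949 by level in day 3 replicate 2. The presence of reads is therefore no check of the sorted cells. Cd4 lay between 0.906 and 26.8 CPM and the natural killer cell gene Ncr1 between 0 and 6.43 CPM. Genes of brain microglia were present in the brain libraries, with 18 of them summing to 4384 to 22148 CPM at day 30, 3753 to 44104 CPM at day 3, 39865 to 118115 CPM in naive brain and 558 to 727 CPM in naive blood. The libraries were also split into a pair of classes at the widest log gap in their reads on smell and taste receptor genes. No label names such classes, and whether they are technical was not tested. All 3 naive brain libraries and replicate 1 of both day 30 and day 3 had few reads on genes of smell and taste receptors, genes without a known role in T cells, at 164 to 873 unscaled CPM summed over 1484 genes, and held 3469970 to 21014171 reads in all. The other 7 libraries, called high background here, had 2006 to 7813 unscaled CPM on those genes and held 1104490 to 2141260 reads. Replicates 2 and 3 of day 3 and of day 30 are therefore set against naive brain libraries of the other class, and in those comparisons the class and the group are confounded in part, with replicate 1 of each time as the sole stroke library of the naive brain class.

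The 9 genes lie on 5 chromosomes of the mm10 build, in the GENCODE vM21 annotation. Cd3g (chromosome 9, 44969572 to 44980431, minus strand) and Cd3d (44981786 to 44987339, plus strand) run away from each other with 1355 bases between them, and Cd3e (44998740 to 45009627, minus strand) lies 11401 bases beyond Cd3d. Cd8b1 (71322788 to 71337494) and Cd8a (71373427 to 71379173) both lie on the plus strand of chromosome 6. Lck lies on chromosome 4 (129548344 to 129573641, minus strand), Lat on chromosome 7 (126363824 to 126369570, minus strand), and Zap70 (36761798 to 36782818) and Cd247 (165788681 to 165877277) on the plus strand of chromosome 1. Cd3e overlaps the antisense gene Gm48719, and Cd247 overlaps Pou2f1 on the other strand. The strand setting of the counting is not given in the sources used here, so reads of those pairs could not be told apart.

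The start-site windows of the clustered CD3 genes and of Lck, the member with the widest range, are shown so that the letters at the starts of neighbouring genes can be compared. They come from RefSeq on GRCm38.p6 (the mm10 build), run from 250 bases before to 50 after an annotated start, and are written 5′ to 3′ on the gene's strand. They are Cd3g (chr9:44980382-44980681, minus), Cd3d (chr9:44981536-44981835, plus), Cd3e (chr9:45009562-45009861, minus) and 2 windows of Lck (chr4:129573592-129573891 and chr4:129558323-129558622, minus). Capitals mark exact matches on either strand to 5 short motifs of factors known from T cells. The letters searched were CAGGAAG for ETS factors, whose members include Ets1. For E-box binding factors such as Tcf12 they were CAGGTG. The RUNX letters were TGTGGT, the core that Runx1 and Runx3 bind. For the factors Tcf7 and Lef1 the search used CTTTGA. The GATA family, which includes Gata3, was searched with AGATAA.
Cd3g: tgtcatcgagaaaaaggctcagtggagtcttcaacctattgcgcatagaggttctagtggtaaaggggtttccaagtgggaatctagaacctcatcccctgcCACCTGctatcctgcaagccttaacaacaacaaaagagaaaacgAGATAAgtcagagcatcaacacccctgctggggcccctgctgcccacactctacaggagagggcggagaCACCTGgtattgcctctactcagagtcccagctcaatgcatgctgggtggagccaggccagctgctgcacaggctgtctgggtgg
Cd3d: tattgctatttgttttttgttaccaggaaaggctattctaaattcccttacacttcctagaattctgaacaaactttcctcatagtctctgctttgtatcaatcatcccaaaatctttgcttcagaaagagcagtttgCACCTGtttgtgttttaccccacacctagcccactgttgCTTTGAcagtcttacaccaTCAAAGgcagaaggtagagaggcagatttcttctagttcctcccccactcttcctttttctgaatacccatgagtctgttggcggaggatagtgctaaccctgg
Cd3e: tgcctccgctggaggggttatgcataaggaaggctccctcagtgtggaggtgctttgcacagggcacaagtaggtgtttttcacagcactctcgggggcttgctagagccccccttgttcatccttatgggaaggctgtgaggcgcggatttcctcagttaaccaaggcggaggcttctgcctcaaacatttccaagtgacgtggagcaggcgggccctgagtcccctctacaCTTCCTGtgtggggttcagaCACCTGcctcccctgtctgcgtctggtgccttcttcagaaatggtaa
Lck, upstream window: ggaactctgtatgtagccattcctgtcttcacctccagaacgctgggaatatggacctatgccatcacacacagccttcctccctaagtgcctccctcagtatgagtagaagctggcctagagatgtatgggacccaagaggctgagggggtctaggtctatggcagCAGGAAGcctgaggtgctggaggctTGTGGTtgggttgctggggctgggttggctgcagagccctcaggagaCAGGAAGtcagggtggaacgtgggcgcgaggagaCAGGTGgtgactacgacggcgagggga
Lck, downstream window: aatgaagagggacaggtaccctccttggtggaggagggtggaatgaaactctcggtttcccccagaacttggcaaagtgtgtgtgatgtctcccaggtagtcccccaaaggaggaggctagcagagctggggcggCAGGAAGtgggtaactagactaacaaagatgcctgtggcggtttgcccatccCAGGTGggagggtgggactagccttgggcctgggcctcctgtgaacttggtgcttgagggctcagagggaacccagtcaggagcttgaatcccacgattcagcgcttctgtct
The E-box letters stood in all 5 of these windows and the ETS letters in Cd3e and both Lck windows, while the GATA letters stood in Cd3g alone of the 5. The 8 of 9 genes with a window had 11 windows, 3 of them of Zap70 and 2 of Lck. Of the 11 windows, 8 held the E-box letters, 6 the ETS letters, 3 the RUNX letters, 3 the TCF/LEF letters and 1 the GATA letters. Among all 32544 windows of the same length, 20.28% held the E-box letters, 13.31% the ETS letters, 16.68% the RUNX letters, 16.02% the TCF/LEF letters and 11.16% the GATA letters. A match describes letters in the window and is not evidence of binding.

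Levels of different genes were compared per kilobase of exon, using the GENCODE vM21 exon length. Cd8b1 was the highest of the 9 in naive brain, at 1414 ± 186 CPM per kilobase (SD, n = 3), followed by Cd3d at 716 ± 219.8, Lck at 662 ± 272 and Cd3g at 534 ± 137. Cd8a at 342 ± 109.8, Cd3e at 333 ± 133 and Lat at 319 ± 93.9 came next and lay within each other's spread, and Zap70 at 68.9 ± 17.0 and Cd247 at 66.3 ± 32.8 were lowest. The order differed in naive blood, where Cd3d led with 449.5 ± 185 CPM per kilobase ahead of Cd8b1 with 385 ± 118, and where Cd3e, at 26.2 ± 27.0, lay between Zap70 at 27.7 ± 12.1 and Cd247 at 20.5 ± 1.03. Cd8b1 was again first and Cd3d second at day 30, with 1113 and 619 CPM per kilobase, and at day 3, with 277 and 127, and Zap70 and Cd247 were the lowest pair at both times.

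The CD3 epsilon, gamma and delta chains pair with each other to flank the receptor. Cd3e had 2370.2, 219 and 395 CPM in the day 30 libraries, 429, 44.1 and 27.8 CPM in the day 3 libraries, 746, 1784 and 1544 CPM in the naive brain libraries and 60.0, 28.0 and 233 CPM in the naive blood libraries. Its naive brain libraries all lay above its day 3 and blood libraries, and day 30 replicate 1 stood above every other library while day 30 replicates 2 and 3 lay among the day 3 and blood values. Cd3g had 2883, 1056 and 844 CPM in the day 30 libraries, 494, 44.1 and 132 CPM in the day 3 libraries, 1268, 1821 and 2152 CPM in the naive brain libraries and 886, 232 and 544 CPM in the naive blood libraries. All 3 day 30 libraries of Cd3g lay above all 3 day 3 libraries, and blood lay between them with overlap at both ends. Cd3d had 1855, 787 and 729 CPM in the day 30 libraries, 469, 51.0 and 173 CPM in the day 3 libraries, 1041, 1097 and 1758 CPM in the naive brain libraries and 1040.4, 430.1 and 977 CPM in the naive blood libraries. The blood libraries of Cd3d overlapped those of day 30 and lay above all 3 day 3 libraries but for blood replicate 2, which lay below day 3 replicate 1.

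Cd247, whose zeta chain carries the most tyrosine motifs of the complex, had 436, 259 and 122 CPM in the day 30 libraries, 74.5, 28.2 and 39.1 CPM in the day 3 libraries, 153, 431 and 476 CPM in the naive brain libraries and 115, 104 and 109 CPM in the naive blood libraries. The day 3 libraries lay below every other library, and the blood libraries, within 104 to 115 CPM, were the most alike of any group for this gene. The range over all 12 libraries was 16.9-fold for Cd247, the narrowest of the 9, against 115-fold for Lck, the widest.

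Of the CD8 chains, Cd8a had 2809, 518 and 766 CPM in the day 30 libraries, 510.4, 52.8 and 197 CPM in the day 3 libraries, 797, 1571 and 1358 CPM in the naive brain libraries and 172, 216 and 237 CPM in the naive blood libraries. Cd8b1 had 3843, 689 and 420.5 CPM in the day 30 libraries, 825, 81.4 and 326 CPM in the day 3 libraries, 1803, 2137 and 2349 CPM in the naive brain libraries and 725, 382 and 608 CPM in the naive blood libraries. For both chains the day 3 libraries lay below all naive brain libraries and day 30 replicate 1 was the highest of the 12 libraries. Within day 30 the highest library stood 5.42-fold above the lowest for Cd8a and 9.14-fold for Cd8b1, and the SD of that group was close to its mean (1364 ± 1257 CPM for Cd8a and 1651 ± 1903 CPM for Cd8b1, SD, n = 3).

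Among the kinases and the adaptor, Lck had 2244, 553 and 277 CPM in the day 30 libraries, 339.8, 21.4 and 41.8 CPM in the day 3 libraries, 1019, 2345 and 2450.3 CPM in the naive brain libraries and 117, 141 and 223 CPM in the naive blood libraries. Every naive brain library lay above every day 3 and blood library, and the lowest were replicates 2 and 3 of day 3, with 47 and 78 reads. Zap70 had 127, 89.1 and 113 CPM in the day 30 libraries, 54.8, 9.10 and 19.8 CPM in the day 3 libraries, 261, 161 and 197 CPM in the naive brain libraries and 69.8, 54.9 and 124 CPM in the naive blood libraries. The day 30 values of Zap70 lay within 1.43-fold of each other, whereas the other 8 genes ranged 2.54-fold (Cd3d) to 10.8-fold (Cd3e) within day 30. Lat had 1082, 337 and 196 CPM in the day 30 libraries, 207, 15.0 and 49.8 CPM in the day 3 libraries, 599, 941 and 1108 CPM in the naive brain libraries and 223, 237 and 220.0 CPM in the naive blood libraries. The blood libraries of Lat were nearly equal and lay between day 30 replicates 2 and 3, just above day 3 replicate 1.

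**Figure D1:**
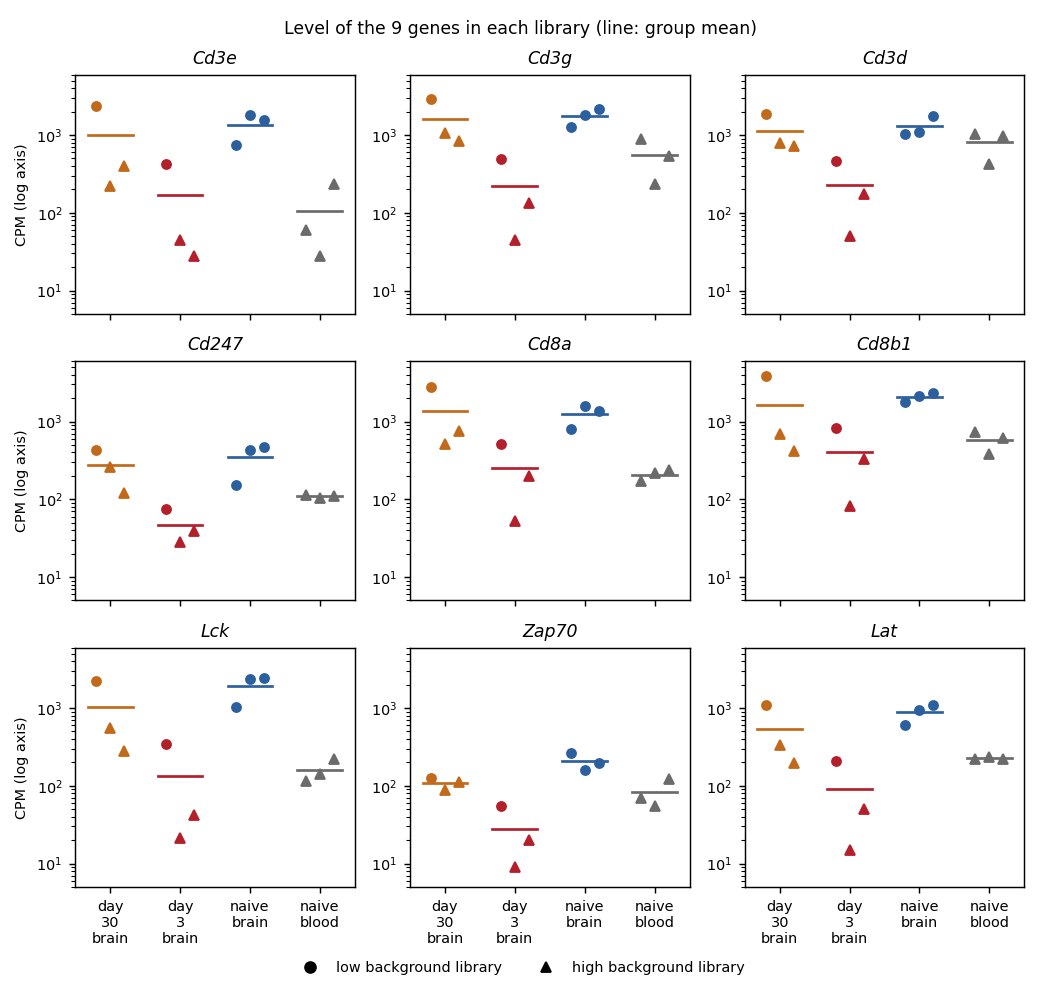
Level of each of the 9 genes in CPM (log axis) by group, with 1 point per library and a line at the group mean; circles are low background and triangles high background libraries. The day 3 points lie below the naive brain points in all 9 panels, and in each of them the circle of day 3, replicate 1, is the highest of its group.

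The comparison of day 3 with naive brain asks how the receptor genes of CD8 T cells recovered early after stroke compare with those of cells from uninjured brain. All 9 genes fell at day 3, and Lck fell furthest, where 0.564% of all 22352 genes tested were called lower (126 genes) and 0.152% higher (34 genes). In all 9 every day 3 library lay below every naive brain library, as it did in 8.5% of all genes tested. Lck averaged 134 ± 178 CPM at day 3 against 1938 ± 798 CPM in naive brain (SD, n = 3 each), a difference in log2(CPM + 1) of -4.71 ± 0.75 (SE) with adjusted p = 0.000262 by limma, adjusted over all genes tested by the Benjamini-Hochberg method. Lat and Cd3e followed, at 90.6 ± 102 against 883 ± 259.7 CPM for Lat (-3.95 ± 0.74, adjusted p = 0.00221 by limma) and 167 ± 227 against 1358 ± 543 CPM for Cd3e (-3.95 ± 0.81, adjusted p = 0.00537). In bulk samples, fewer CD8 T cells among the sorted cells and less RNA of these genes per cell cannot be told apart.

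The other CD3 genes fell as well, Cd3g by a difference of -3.57 ± 0.70, Cd3d by -2.96 ± 0.68 and Cd247 by -2.83 ± 0.73, with limma's adjusted p of 0.00328 for Cd3g, 0.018 for Cd3d and 0.0416 for Cd247. The CD8 chains differed by -2.76 ± 0.70 for Cd8a and -2.89 ± 0.71 for Cd8b1, with adjusted p of 0.0374 for Cd8a and 0.0276 for Cd8b1 by limma, and Zap70 by -3.16 ± 0.78, also with adjusted p = 0.0276. The median difference was -3.16 over the 9 genes and 0.50 over all genes tested. Over all genes, the split of 34 called higher and 126 lower moved with the processing, to 16 and 1 with edgeR, 800 and 175 with DESeq2, 115 and 110 with unscaled CPM, 25 and 31 with quantile normalization and 1 and 4 with median centring.

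These counts depended on the libraries and on their class. With a term for library background, limma called 0 of 9 genes, with differences of -2.72 to -1.17 and unadjusted p-values under 0.05 for all 9, and called 0% of all genes lower. Low background libraries taken alone, which leave day 3 with replicate 1, gave differences of -2.40 to -1.22, for which the spread rests on the 3 naive brain libraries. Leaving out day 3 replicate 2 or 3 left 3 of the 9 called, with 13 and 23 of all genes called lower. Leaving out naive brain replicate 1, 2 or 3 left 5, 2 and 4 of the 9, with 78, 11 and 22 of all genes. On all libraries, edgeR's quasi-likelihood test on recovered reads called 0 (all 9 at an unadjusted p under 0.05 and 0.00447% of genes called lower) and DESeq2 called 6 (0.855% of genes called lower). With median centring 0 of the 9 were called. The direction held for all 9 genes in all 24 alternatives, and Lck and Lat each passed in 20 of them.

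**Figure D2:**
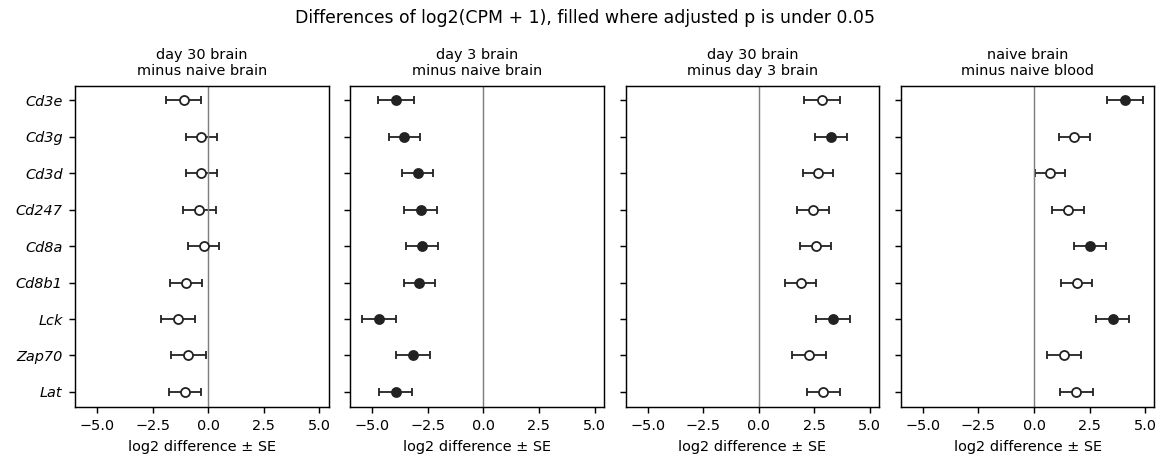
Difference in log2(CPM + 1) of each of the 9 genes in 4 comparisons, first-named group minus second, with the standard error; filled points have an adjusted p under 0.05 by limma. All 9 points are filled and negative for day 3 minus naive brain, while the day 30 minus naive brain points lie between -1.36 and -0.20 and none is filled.

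Some markers of other cells moved in the same comparison. Of 14 tested monocyte and macrophage genes, limma called 3 higher at day 3 than in naive brain and 0 lower. They were Spp1 (8.48 ± 0.95), Chil3 (5.48 ± 1.11) and Fn1 (5.46 ± 0.95). Others of that list were mixed, such as Cd68 with 3018, 248 and 266 CPM at day 3 against 892, 666 and 995 CPM in naive brain. Also higher were 4 of 7 erythroid genes, all haemoglobin genes, of which Hba-a1 and Hba-a2 had the same values. Of the 18 microglia genes, 3 were called lower and 0 higher, namely Tmem119 (-4.03 ± 0.89), Cx3cr1 (-3.12 ± 0.82) and Cst3 (-3.10 ± 0.67). The 14 measured monocyte and macrophage genes summed to 30266, 3469 and 7404 CPM in the day 3 libraries against 5857 to 6990.1 CPM in naive brain. The 7 erythroid genes summed to 205 to 1616 CPM at day 3 against 9.93 to 82.5 CPM in naive brain. The 9 natural killer cell genes, 0 of which were called, summed to 1374 to 8573 CPM at day 3 and 2377 to 4905 CPM in naive brain. Most of each sum was Tyrobp (621 to 4700 CPM at day 3, 1510 to 2567 CPM in naive brain) and Fcer1g (676 to 3745 and 687 to 1834 CPM). Ncr1 reached at most 6.43 CPM, so these sums do not measure natural killer cells. Ptprc, the pan-leukocyte marker CD45, had 1071, 232 and 920.0 CPM at day 3 and 986, 1447 and 1636 CPM in naive brain, so that the sum of the 9 genes was 3.18, 1.49 and 1.09 times Ptprc in the day 3 libraries against 7.80, 8.49 and 8.19 times in the naive brain libraries. All 3 of these ratios were lower at day 3 than any in naive brain. The part of these other cells in the fall of the 9 genes was not tested.

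**Figure D3:**
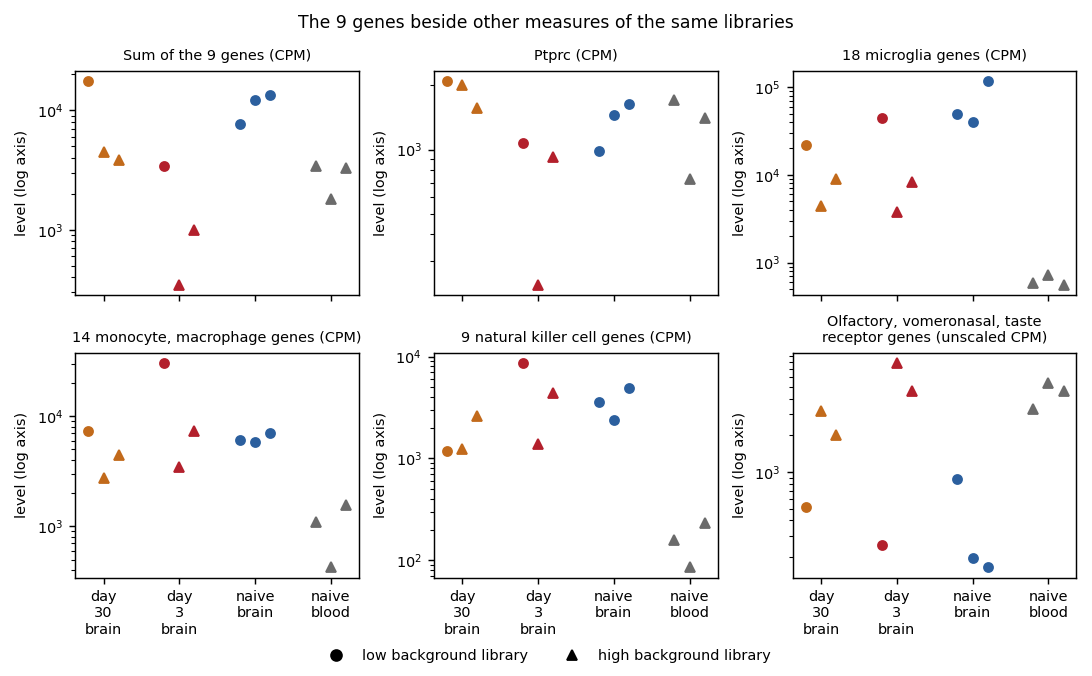
Sum of the 9 genes, Ptprc, 18 microglia genes, 14 monocyte and macrophage genes and 9 natural killer cell genes in CPM, and 1484 smell and taste receptor genes in unscaled CPM, by group on log axes with 1 point per library. Circles are low background and triangles high background libraries, and all naive brain points are circles while all naive blood points are triangles. In the brain libraries most of the natural killer cell sum is Tyrobp and Fcer1g.

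Day 30 against naive brain sets the late time beside uninjured tissue. None of the 9 genes was called by limma, where 0.224% of all genes tested were called lower (50 genes) and 0% higher, none had an unadjusted p under 0.05, and edgeR and DESeq2 called 0 too, while calling 0.0268% and 0.334% of genes lower. Cd8a averaged 1364 ± 1257 CPM at day 30 and 1242 ± 399.5 CPM in naive brain (SD, n = 3 each), a difference of -0.20 ± 0.70, and Lck 1025 ± 1065 and 1938 ± 798 CPM, a difference of -1.36 ± 0.75 with adjusted p = 0.606 by limma. The others differed by -1.11 ± 0.81 (Cd3e), -1.04 ± 0.74 (Lat), -1.01 ± 0.71 (Cd8b1), -0.89 ± 0.78 (Zap70), -0.39 ± 0.73 (Cd247), -0.32 ± 0.70 (Cd3g) and -0.31 ± 0.68 (Cd3d). The median was -0.89 over the 9 genes and 0.19 over all genes tested. Over all genes, 0 called higher and 50 lower became 158 and 67 with DESeq2, 29 and 90 with unscaled CPM and 4 and 8 with quantile normalization. Zap70 alone had all 3 day 30 libraries below all 3 naive brain libraries, as did 6.03% of all genes tested.

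The day 30 group is split between the library classes, and the sign of its differences depended on how they were treated. Replicate 1, the low background library, summed to 17650.1 CPM over the 9 genes, above the 7688 to 13393 CPM of the naive brain libraries, while replicates 2 and 3 summed to 4507 and 3862 CPM, below them. With a term for library background, 8 of 9 differences were positive, up to 1.29 for Cd8a, and Zap70 stayed negative at -0.13. The 18 microglia genes included 5 that were called lower at day 30 than in naive brain, among them Tmem119 (-4.07 ± 0.89), C1qa (-3.96 ± 0.87), Fcrls (-3.83 ± 0.86) and Cx3cr1 (-3.72 ± 0.82), and their part in these values was not tested.

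Day 30 against day 3 compares the times directly. Limma called 2 of the 9 genes higher at day 30, Cd3g and Lck, where it called 0.116% of all genes tested higher (26 genes) and 0.139% lower (31 genes), and all 9 differences were positive, from 1.88 to 3.35 on the log2 scale with unadjusted p-values under 0.05, as 1269 of all genes had. Cd3g averaged 1594 ± 1121 CPM at day 30 against 224 ± 239 CPM at day 3, a difference of 3.25 ± 0.70 (adjusted p = 0.0133 by limma), and Lck 1025 ± 1065 against 134 ± 178 CPM, a difference of 3.35 ± 0.75 (adjusted p = 0.02). The other 7 differed by 2.91 ± 0.74 (Lat), 2.66 ± 0.68 (Cd3d), 2.56 ± 0.70 (Cd8a), 2.84 ± 0.81 (Cd3e), 2.44 ± 0.73 (Cd247), 2.27 ± 0.78 (Zap70) and 1.88 ± 0.71 (Cd8b1). Their adjusted p-values by limma were 0.061 for Lat, 0.0687 for Cd3d, 0.107 for Cd8a, 0.132 for Cd3e, 0.204 for Cd247, 0.368 for Zap70 and 0.504 for Cd8b1. Cd3g, Cd3d, Cd247, Cd8a and Zap70 had every day 30 library above every day 3 library, against 4% of all genes tested.

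Here each time has 1 low and 2 high background libraries, so the class is balanced in number only. Within the high class, smell and taste receptor genes had 7813 and 4641 unscaled CPM at day 3 against 3163 and 2006 at day 30. Those day 3 libraries also held fewer reads, 1157538 and 1267597 against 1723245 and 1948611. In the low class the receptor genes had 252 at day 3 and 518 at day 30. The differences of the 9 genes were 1.20 to 2.72 between the low background libraries, 1 at each time and so without a replicate. Among the high background libraries they were 1.72 to 3.67. With the replicate block, 6 of the 9 genes passed, the additional ones being Cd3e, Cd3d, Cd8a and Lat (0.273% of all genes called higher). The replicate numbers do not establish a pairing of libraries, so the block is an alternative only. With a term for library background 8 passed, all but Zap70 (0.371% of all genes called higher). Without day 30 replicate 1, day 3 replicate 2 or day 3 replicate 3, limma called 0 of the 9 and 14, 6 and 16 of all genes higher. Without day 30 replicate 2 it called 1 of the 9 and 16 of all genes higher, and without day 3 replicate 1 it called 6 of the 9 and 102 of all genes higher. edgeR called 0, with all 9 at an unadjusted p under 0.05, where it called 0.0313% of genes higher, and DESeq2 called 3 (0.388% of genes higher). Without the filter on low values or with median centring limma called 0 as well. Over all genes, the 26 called higher and 31 lower became 7 and 28 with edgeR, 51 and 120 with DESeq2 and 0 and 8 with median centring. The day 30 and day 3 differences against naive brain share the same 3 naive brain libraries.

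Naive brain against naive blood compares tissue of origin without injury. All 9 genes had every naive brain library above every blood library, but so did 15.6% of all genes tested, and limma called 3 of the 9 higher against 6.61% of all genes tested, with 0.975% called lower. Cd3e was furthest apart, at 1358 ± 543 CPM in naive brain against 107 ± 110.1 CPM in naive blood (SD, n = 3 each), a difference of 4.09 ± 0.81 (adjusted p = 0.00034 by limma). Lck differed by 3.54 ± 0.75 (adjusted p = 0.000999 by limma) and Cd8a by 2.53 ± 0.70 (adjusted p = 0.0157). At the other end, Cd3d had 1299 ± 399 CPM in naive brain against 816 ± 336 CPM in naive blood, a difference of 0.73 ± 0.68 (adjusted p = 0.492 by limma). The remaining differences, none of which passed, were 1.91 ± 0.74 (Lat), 1.91 ± 0.71 (Cd8b1), 1.82 ± 0.70 (Cd3g), 1.52 ± 0.73 (Cd247) and 1.36 ± 0.78 (Zap70), with adjusted p-values of 0.0933 for Lat, 0.0792 for Cd8b1, 0.0911 for Cd3g, 0.175 for Cd247 and 0.25 for Zap70 by limma. The median was 1.91 over the 9 genes and -0.37 over all genes tested. Over all genes, the 1478 called higher and 218 lower became 693 and 870 with unscaled CPM, 1318 and 2481 with DESeq2, 574 and 130 with quantile normalization, 1054 and 123 with edgeR and 2882 and 12 with median centring. All naive brain libraries are low and all blood libraries high background, and with a term for that class, which then rests on the stroke libraries, 0 of 9 passed by limma, none at an unadjusted p under 0.05, with differences of -1.07 to 0.80 (0.157% of genes called higher). Without day 3 replicate 1 or 2, which are in neither group, limma called 6 of the 9, and 1654 and 1556 of all genes higher.

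Against blood, neither time after stroke had a called member by limma. Day 3 differences from blood were -2.23 ± 0.68 (Cd3d), -2.04 ± 0.74 (Lat), -1.80 ± 0.78 (Zap70), -1.17 ± 0.75 (Lck), -1.75 ± 0.70 (Cd3g), -1.31 ± 0.73 (Cd247), -0.98 ± 0.71 (Cd8b1), -0.24 ± 0.70 (Cd8a) and 0.15 ± 0.81 (Cd3e). An unadjusted p under 0.05 was found for 4 of the 9 and for 1852 of all 22352 genes tested. All 3 day 3 libraries of Cd247, Lat and Zap70 lay below all 3 blood libraries, as in 4.52% of all genes tested. In the same comparison, 0.085% of genes were called lower and 1.10% higher (19 and 245 genes), while unscaled CPM called 438 higher and 135 lower and quantile normalization 452 higher and 149 lower. edgeR called 0 of the 9 lower and DESeq2 called 1 (Cd3d), where they called 0.0403% and 0.761% of all genes lower, and limma called 3 without day 3 replicate 1 (49 of all genes lower) and 1 without day 30 replicate 1 (31 of all genes lower). With a term for library background, limma called 4 lower (Cd3g, Cd3d, Lck and Lat), with 0.282% of all genes. Day 30 differences from blood were 2.99 ± 0.81 (Cd3e, adjusted p = 0.0564 by limma), 2.32 ± 0.70 (Cd8a), 2.18 ± 0.75 (Lck), 1.50 ± 0.70 (Cd3g), 1.13 ± 0.73 (Cd247), 0.91 ± 0.71 (Cd8b1), 0.87 ± 0.74 (Lat), 0.47 ± 0.78 (Zap70) and 0.43 ± 0.68 (Cd3d). An unadjusted p under 0.05 was found for 4 of the 9 and for 2308 of all genes, and edgeR and DESeq2 called 0, where they called 0.608% and 1.24% of all genes higher. Of all genes, 0.676% were called higher and 0.0358% lower at day 30 than in blood (151 and 8 genes), against 221 higher and 66 lower with DESeq2 and 7 higher and 4 lower with median centring. Cd247, Cd8a and Lck had every day 30 library above every blood library, as did 7.35% of all genes tested. Limma called 1 of the 9 higher without day 30 replicate 2, day 3 replicate 3, naive brain replicate 3 or blood replicate 3, with 168, 149, 166 and 181 of all genes called higher, and 2 without day 3 replicate 1 or 2, with 166 and 210 of all genes.

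The genes did not keep one proportion across libraries. A ratio of a pair of genes within a library does not depend on how the library was scaled, and each of the other 8 genes was set against Cd3e in this way. Cd3d stood at 0.783, 3.59 and 1.85 times Cd3e in the day 30 libraries, 1.09, 1.15 and 6.21 times at day 3, 1.40, 0.615 and 1.14 times in naive brain and 17.3, 15.4 and 4.20 times in naive blood. Blood replicates 1 and 2 lay above every brain library, and blood replicate 3 lay above all but day 3 replicate 3. Lat stood at 0.457, 1.54 and 0.497 times Cd3e at day 30, 0.483, 0.340 and 1.79 at day 3, 0.802, 0.527 and 0.718 in naive brain and 3.72, 8.47 and 0.946 in naive blood, again with blood replicates 1 and 2 highest.

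Over 9 brain and 3 blood libraries, the log2 ratio of Cd3d to Cd3e was 0.58 ± 1.05 in brain and 3.35 ± 1.12 in blood (SD), a difference of -2.77 (two-sided exact permutation p = 0.00909, adjusted p = 0.0364 over 8 ratios). The ratios of Zap70 (-2.40), Lat (-2.16), Cd3g (-1.88) and Cd8b1 (-1.79) to Cd3e were lower in brain too, each with adjusted p = 0.0364 by the exact permutation test, and so was that of Cd247 (-1.96, adjusted p = 0.0424). Cd8a and Lck had differences of -0.87 and -0.90 that did not pass, with adjusted p-values of 0.236 for Cd8a and 0.166 for Lck by the same exact test. All 8 ratios share Cd3e as denominator, so their calls are not independent of each other. The brain set pools day 30, day 3 and naive brain and both library classes, while all blood libraries are high background. Blood replicates 1 and 2 had 111 and 51 reads on Cd3e, and without either of them no ratio passed. The call for Cd8b1 was also lost without day 30 replicate 1 or naive brain replicate 3, and that for Cd247 without any of 6 brain libraries (day 30 replicates 1 and 3, day 3 replicate 1 and the 3 of naive brain), while without blood replicate 3 all 8 passed. Among the 7 high background libraries the 8 differences were negative and none passed. Between naive brain and blood, 3 libraries against 3, the smallest two-sided p that the exact permutation test can give is 0.1, and the ratios of 6 genes to Cd3e (all but Cd8a and Lck) were lower in all 3 naive brain libraries.

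**Figure D4:**
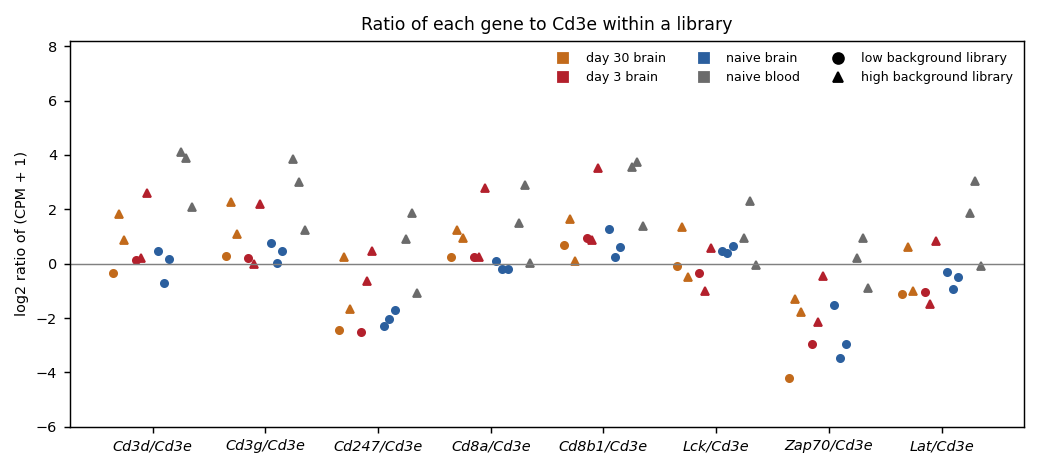
Log2 ratio of (CPM + 1) of each of the other 8 genes to Cd3e within a library, by group, with circles for low and triangles for high background libraries. Grey points, naive blood, lie highest for Cd3d, where they run from 2.07 to 4.09, and the naive brain points run from -0.70 to 0.48.

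Ratios to Cd8a were chosen after the values were seen. Lck stood at 0.799, 1.07 and 0.362 times Cd8a in the day 30 libraries, 0.666, 0.405 and 0.213 times at day 3, 1.28, 1.49 and 1.80 times in naive brain and 0.679, 0.654 and 0.942 times in naive blood. All 3 naive brain values, each from a low background library, lay above all others, and the day 3 values overlapped those of blood and day 30. The low background stroke libraries stood at 0.799 (day 30) and 0.666 (day 3). How many other pairs of genes separate in this way was not counted. The beta and alpha chains of CD8 stood at 1.37, 1.33 and 0.549 (Cd8b1 to Cd8a) at day 30, 1.62, 1.54 and 1.66 at day 3, 2.26, 1.36 and 1.73 in naive brain and 4.21, 1.77 and 2.57 in naive blood, a ratio that was most alike at day 3 and lowest in day 30 replicate 3. Lat to Cd8a was also lower at day 3 (0.406, 0.284 and 0.253) than in naive brain (0.751, 0.599 and 0.816), with blood highest. The ratios of Zap70 and Cd247 to Cd8a overlapped between day 3 and naive brain. None of these ratios to Cd8a was tested. The planned ratio of Lck to Cd3e overlapped between day 3 and naive brain, with a difference of -0.76 (adjusted p = 0.667 by the exact permutation test, smallest p possible 0.1). Cd8a itself moved against Cd3e. Its planned log2 ratio to Cd3e was higher in all day 3 than in all naive brain libraries (1.18, adjusted p = 0.667 by the same test). The same held for all day 30 against all naive brain libraries (0.90, adjusted p = 0.8 by that test).

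Of 27 other genes that act with the receptor, 6 fell and 0 rose at day 3 against naive brain by limma, where 0.564% of all genes tested were called lower. With edgeR or the background term 0 of the 27 were called lower, with quantile normalization 1 (Cd2), with unscaled CPM 4 and with DESeq2 5. The 6 included Cd2, an adhesion receptor that aids activation, the adaptors Skap1 and Sh2d2a, Rasgrp1, which activates Ras, and the kinase Prkcq, and the median of the 27 was -1.57 against 0.50 over all genes tested. Cd2 had 190.2, 12.7 and 6.96 CPM at day 3 against 582, 872 and 897 CPM in naive brain (-4.81 ± 0.81, adjusted p = 0.000712 by limma). Of 18 genes that restrain the pathway, 4 fell and 0 rose, namely Ptpn22, a phosphatase that acts on Lck (-3.43 ± 0.70, adjusted p = 0.00537 by limma), Dgka (-3.16 ± 0.67), which removes diacylglycerol, the adaptor Dok2 (-3.66 ± 0.89) and the surface receptor Cd6 (-3.55 ± 0.84). Of the 18, edgeR and the background term called 0 lower, quantile normalization 2, unscaled CPM 4 and DESeq2 6. At day 30 against naive brain, 0 of the 27 and 0 of the 18 were called by limma.

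Txk, a Tec family kinase, followed another order. It had 251, 266 and 477 CPM at day 30, 66.3, 8.64 and 55.7 CPM at day 3, 156, 119 and 149.6 CPM in naive brain and, in naive blood, 478, 249.6 and 408 CPM. The day 3 libraries lay below all others, and every naive brain library lay below every day 30 and blood library. Of all 22352 genes tested, 3396 had every naive brain library below every blood library. Every day 30 library lay above every naive brain library in 1614. Day 3 lay wholly below naive brain in 1900, below day 30 in 895 and below blood in 1010. The naive brain libraries are all low background. Txk was higher at day 30 than at day 3 (3.26 ± 0.74, adjusted p = 0.0207 by limma) and lower at day 3 than in blood (-3.46 ± 0.74, adjusted p = 0.00272), while its naive brain and blood values (-1.37 ± 0.74, adjusted p = 0.224) did not pass. Cd2 (3.48 ± 0.81) and Ptpn22 (3.37 ± 0.70, adjusted p = 0.00887) were the other genes of both lists called higher at day 30 than at day 3. edgeR called no gene of either list between day 30 and day 3, and between day 3 and blood it called Txk lower and not Dgka. Dgka was the other one called lower at day 3 than in blood (-2.42 ± 0.67, adjusted p = 0.0473 by limma).

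In naive brain, 5 of the 27 acting genes and 6 of the 18 restraining genes were higher than in blood by limma, where 6.61% of all genes tested were, and none was lower. Of the 27, unscaled CPM called 3 higher and 2 lower (Txk and Ptprc), quantile normalization 1 higher and the same 2 lower, DESeq2 5 higher and 1 lower (Txk), edgeR 5 higher and the background term 0. Of the 18, those settings called 5 (unscaled CPM), 4 (quantile normalization), 7 (DESeq2), 6 (edgeR) and 0 (background term) higher. The acting genes were Sh2d2a (3.65 ± 0.76), the adaptors Lcp2 (3.27 ± 0.77) and Grb2 (2.87 ± 0.79), Cd2 (2.96 ± 0.81) and the exchange factor Vav1. The restraining genes were Sit1 (4.41 ± 0.93), Dok2 (3.92 ± 0.89), Sla (3.65 ± 0.79), Csk (3.48 ± 0.78), the kinase that holds Lck inactive, and Ptpn6 and Ubash3a. Sla and Sit1 were also higher at day 30 than in blood (2.99 ± 0.79, adjusted p = 0.0499 for Sla and 3.59 ± 0.93, adjusted p = 0.041 for Sit1, by limma), but edgeR, DESeq2, quantile normalization and the background term called 0 of the 18 in that comparison. Several of these, such as Ptpn6, Vav1, Lcp2 and Csk, are known to be used by myeloid cells as well, all 18 microglia genes were higher in naive brain than in blood, and the part of microglia in these differences was not tested.

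Across the 12 libraries, log2 levels of the 9 genes ran together, with Pearson's r between pairs from 0.722 (Cd3e with Cd3d) to 0.962 (Cd3g with Cd3d). Lck and Lat stood at 0.958, Cd8a and Cd8b1 at 0.906 and Cd3e and Cd8a at 0.906. These values describe points that share a group, a library class and a scaling factor. Among 11281 other genes with a mean of at least 10 CPM, those whose log2 level was most like the mean standardised level of the 9 were Gimap3 (r = 0.978), Sh3kbp1 (0.974), Nkg7 (0.973), the pair H2-Q7 and H2-Q9 (0.971), which had the same counts and cannot be separated, Sept6 (0.970), H2-K1 (0.968), Ppp3cc (0.967), Sf3b1 (0.964) and Ifi47 (0.962), over the same 12 libraries. Gimap3 averaged 906 CPM at day 30, 181 CPM at day 3, 1568 CPM in naive brain and 184 CPM in naive blood, and Nkg7, which is known from cytotoxic granules, averaged 5696 CPM at day 30, 965 CPM at day 3, 6756 CPM in naive brain and 1415 CPM in naive blood.

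**Figure D5:**
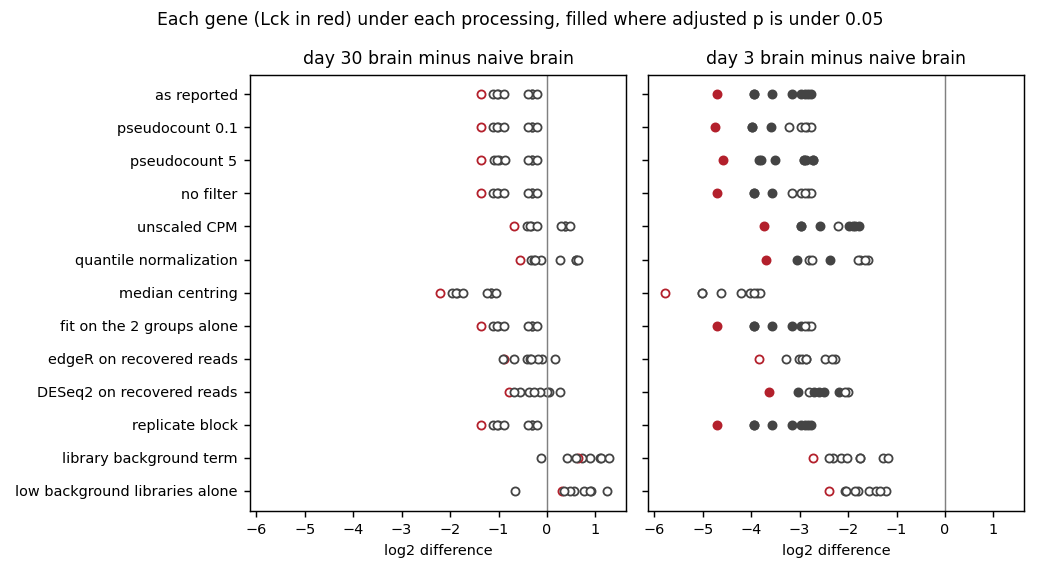
Difference in log2 level of each of the 9 genes, Lck in red, under each way of processing, for day 30 minus naive brain and day 3 minus naive brain; filled points have an adjusted p under 0.05. The day 3 differences are negative in every row, and some day 30 differences are positive with unscaled CPM, quantile normalization, edgeR, DESeq2, a term for library background and the low background libraries alone.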

How the data were processed

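The authors deposited 1 table of 23937 genes in 12 columns, a signal in read counts per gene relative to a library size they scaled (a scaled CPM), so columns sum to 526580 to 2086820. FastQC 0.11.2, STAR 2.5.3a, featureCounts of Subread and edgeR are named with the mm10 build, per the submitters' processing notes, with annotation, strand setting and filters not given in the sources used here. PCR copies count as reads, so floors cover counting error only. Values were whole reads times a constant per library (100% whole to within 0.001 reads), so whole reads recovered this way served the count tests. The planned CPM test was kept for this scaled signal.

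The log2(CPM + 1) values went into limma 3.58.1 (empirical Bayes with trend) in R 4.3.3 on all 12 libraries, over 22352 genes that reached 1 CPM in 3 or more libraries, with Benjamini-Hochberg adjustment within each of 6 comparisons and a threshold of 0.05. Fold changes on this scale understate the change of low genes. Recovered counts were tested with edgeR 4.0.16 (TMM) and DESeq2 1.42.0, which called 17 and 975 of all genes for day 3 against naive brain, where limma called 160. Ratios to Cd3e were tested by exact permutation. The scripts were tested on simulated data. Members, gene lists, the class split of libraries and the alternatives (pseudocount, filter, scaling, tool, block, background, left-out libraries) were chosen with earlier results of these data known. All 9 genes are named in every comparison, up to 4 genes of each other list by size of difference among those called, and Prkcq, Vav1, Ptpn6, Ubash3a and the Cd8a ratios were added after their values were seen. Replicate numbers come from the labels. Between day 30 and day 3, libraries of the same number had correlations of 0.530, 0.284 and 0.165 in their deviations from the group means. The last lay below differently numbered ones at 0.214 and 0.18, and both replicate 1 libraries are low background. A pairing by number is thus not established, and the replicate block served as an alternative only. In the other comparisons, libraries of the same number did not all deviate together. At most 1.68% of genes had equal counts in a pair of libraries. No member had the counts of another gene. Promoter windows came from RefSeq tables on GRCm38.p6 for 8 of 9 genes, all but Cd8b1. The constant genes of the T cell receptor chains are not analysed here, and some listed genes are not reported here.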

Additional observations from a re-analysis of the deposited data

Results flagged for a closer look

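Cd3g and Lck are listed because the difference between the 2 times after stroke passed an adjusted p of 0.05 by limma. All 9 genes were higher at day 30 than at day 3, by 1.88 to 3.35, but the others did not pass. Set against the same naive brain libraries, the day 30 difference minus the day 3 difference was 3.25 on the log2 scale for Cd3g (adjusted p = 0.0133 by limma), with all 3 day 30 libraries above all 3 day 3 libraries. For Lck it was 3.35 (adjusted p = 0.02 by limma), with day 30 replicates 1 and 2 above all 3 day 3 libraries and replicate 3, at 277 CPM, below day 3 replicate 1, at 339.8 CPM. This is the same test as that of day 30 against day 3 in the results, not a further one, and both calls were lost with edgeR, with median centring, without the filter on low values, and without day 30 replicate 1, day 3 replicate 2 or day 3 replicate 3. Groups of 3 libraries are too small for a test of single outlying libraries.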

How the results depend on the processing

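The cause of the following changes was not tested, and a setting that left out libraries also had fewer samples. Each ratio below is to Cd3e. The low background libraries alone leave 1 library at each stroke time, which is assumed to vary like the 3 naive brain libraries, so no count is given for them. The count of the 9 genes called for day 3 against naive brain was 9, with 126 of all genes called lower. It became 4 at pseudocount 0.1 (32 of all genes lower), 3 without the filter (30) and 4 with quantile normalization (31). Median centring, edgeR and a library background term gave 0 (4, 1 and 0 of all genes lower). Leaving out single libraries gave 2 to 9 (11 to 617 of all genes lower). For day 30 against day 3 the count of 2 (26 of all genes higher) became 1 with a pseudocount of 0.1 (16) or a fit on those groups alone (31). It became 8 with unscaled CPM (112 of all genes higher) or the background term (83) and 5 with quantile normalization (63). No filter, median centring and edgeR gave 0 (10, 0 and 7 of all genes higher). Without single libraries it was 0 to 6 (6 to 102 of all genes higher). For naive brain against blood the count of 3 (1478 of all genes higher) became 6 in a fit on those groups alone (1830 of 18817 genes tested). It became 0 with the background term (35 of all genes higher) and 2 to 6 without single libraries (746 to 1769). For day 3 against blood the count of 0 (19 of all genes lower) became 3 with unscaled CPM (135) and 4 with quantile normalization (149) or the background term (63). It was 1 with DESeq2 (87 of all genes lower) and 2 among the high background libraries alone (63). Without single libraries it was 0 to 3 (6 to 49 of all genes lower). For day 30 against blood the count of 0 (151 of all genes higher) became 3 with unscaled CPM (251) and 2 in a fit on those groups alone (118). Without single libraries it was 0 to 2 (76 to 210 of all genes higher). With the replicate block, for which no pairing is established, the count was 6 for day 30 against day 3 (61 of all genes higher). It was 6 for naive brain against blood (1725 higher), 1 for day 3 against blood (38 lower) and 2 for day 30 against blood (284 higher). The block changed neither of the other counts.

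For day 30 against naive brain, the background term gave 1.09 (Cd3e), 1.11 (Cd3g), 0.89 (Cd3d), 0.42 (Cd247), 1.29 (Cd8a), 0.72 (Cd8b1), 0.63 (Lck) and 0.61 (Lat), and the low background libraries alone 0.90, 0.76, 0.56, 0.46, 1.23, 0.88, 0.32 and 0.34 in the same gene order. Unscaled CPM gave 0.37 (Cd3g), 0.38 (Cd3d), 0.29 (Cd247) and 0.48 (Cd8a), quantile normalization 0.59, 0.60, 0.27 and 0.64 for the same genes, DESeq2 0.046 (Cd3g) and 0.26 (Cd8a), and edgeR 0.16 (Cd8a). Leaving out single libraries gave -0.85 to 0.032 for Cd3g, -0.91 to 0.091 for Cd247 and -0.92 to 0.30 for Cd8a. For naive brain against blood, the background term gave -0.32 (Cd3g), -1.07 (Cd3d), -0.67 (Cd8b1) and -0.56 (Lat), and Cd3d was -0.48 with unscaled CPM and -0.81 with quantile normalization. For day 3 against blood, Cd3e was -0.086 with unscaled CPM, -0.091 with quantile normalization, -0.95 with the background term, -1.05 among the high background libraries and -1.05 to 0.97 without single libraries, and Cd8a was 0.27 with edgeR, 0.0063 with DESeq2 and -1.01 to 0.62 without single libraries. For day 30 against blood, Cd3d was -0.10 with unscaled CPM, -0.21 with quantile normalization, -0.17 with the background term, -0.0036 among the high background libraries and -0.0036 to 0.67 without single libraries, Cd8b1 was -0.036 among the high background libraries and -0.036 to 1.56 without single libraries, and Zap70 was -0.054 with unscaled CPM and -0.14 with quantile normalization.

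Among the high background libraries alone the ratios for brain against blood were -1.31 (Cd3g), -1.97 (Cd3d), -0.96 (Cd247), -1.36 (Cd8b1), -1.88 (Lat) and -1.51 (Zap70), none past the threshold. Without single libraries they ran from -2.62 to -1.30 (Cd3g), -3.41 to -2.40 (Cd3d), -2.78 to -1.32 (Cd247), -2.55 to -1.38 (Cd8b1), -3.01 to -1.45 (Lat), -2.89 to -1.97 (Zap70), -1.60 to -0.16 (Cd8a) and -1.46 to -0.28 (Lck), and the Lck ratio between naive brain and blood from -1.12 to 0.058. The median difference over all genes for day 3 against naive brain was 0.50 as reported, 1.13 with unscaled CPM, 0.02 with quantile normalization, -0.56 with median centring, 0.59 with edgeR and 1.03 with DESeq2, and the median over the 9 genes lay below it in each. Limits of the data are the 3 libraries per group, the class of library that differs between naive brain and blood, and counts as low as 20 reads in day 3 replicate 2.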

Other observations

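The haemoglobin genes, which are not T cell genes, summed with other erythroid genes to 5.89 to 9.64 CPM at day 30, 205 to 1616 CPM at day 3, 9.93 to 82.5 CPM in naive brain and 156 to 5735 CPM in naive blood, so day 3 and blood libraries lay above all day 30 and naive brain libraries. Limma called 4 of 7 erythroid genes lower at day 30 than at day 3, with Hba-a1 and Hba-a2 at the same values and not separable (-7.10 ± 1.01, adjusted p = 1.11e-05). The sum of the 9 T cell receptor genes over Ptprc was 8.41, 2.25 and 2.47 at day 30, 3.18, 1.49 and 1.09 at day 3, 7.80, 8.49 and 8.19 in naive brain and 2.01, 2.5 and 2.34 in naive blood, and day 30 replicate 1 alone of the stroke libraries lay in the naive brain range. This ratio also followed the library class. Every low background library, at 3.18 to 8.49, lay above every high background library, at 1.09 to 2.5, blood included.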
